A study of Homo sapiens with 30 samples.

Results

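The comparison described here was that of cells mutated at the CTCF sites S4 and S5 with cells mutated at S4 alone, around the NOTCH1 gene in K562, a human chronic myelogenous leukaemia line. Its members were chosen by genotype label and viewpoint: 6 libraries titled S4-S5 Mutant and 6 titled S4 Mutant, which make 12 of the 30 libraries of the series. Each genotype had 2 libraries at each of 3 viewpoints, the Notch1 Promoter, S2 and S4. Both genotypes carried the S4 mutation, so the groups differed by label only in S5. All cells were grown in the same serum-containing medium with no treatment named. The labels do not give the position of S5, the kind of mutation at either site, whether a genotype was 1 clone, or whether replicates, described as independent libraries, came from separate cultures. P-values here therefore measure only the spread between libraries, which may be technical.

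NOTCH1 encodes a single-pass cell-surface receptor whose cleaved intracellular part moves to the nucleus and acts in transcription, and it is a known oncogene of T-cell leukaemia. CTCF is a zinc finger protein that binds DNA in an orientation-dependent manner and halts cohesin, which extrudes chromatin loops. Sites that stop cohesin are found at the anchors of loops and at the borders of contact domains, and losing one can let contacts spread past it. In 4C-seq, fixed chromatin is cut and religated so that fragments lying close in the nucleus become joined. The pieces joined to 1 bait fragment, the viewpoint, are then amplified and counted at the fragment ends.

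In hg19 coordinates of chromosome 9, the centres of the most covered 5-kb windows were 139443268 for the promoter, 139385872 for S2 and 139523746 for S4. S2 thus lay 57.4 kb centromeric of the promoter, towards lower coordinates, and S4 80.5 kb telomeric of it. NOTCH1 is transcribed from the minus strand, towards S2, and is 51.6 kb long in the GRCh38 annotation of RefSeq, so by its length the gene takes up most of the stretch between the promoter and S2. Its next protein-coding neighbours in that annotation are SEC16A, INPP5E, PMPCA, ENTR1 and SNAPC4 on the centromeric side, and EGFL7, AGPAT2, DIPK1B, LOC124900276 and LCN10 on the telomeric side. EGFL7 encodes a secreted protein of blood vessels that can bind Notch receptors, and INPP5E encodes a lipid phosphatase of the primary cilium. Exons, introns and UTRs were not assigned to hg19 bins, since no hg19 annotation was used here.

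The promoter sequence is shown because the labels name the promoter as a bait region. Distances were taken from the hg19 window centres given above, and this sequence was not mapped to them or to a bait fragment. It is the 250 bases upstream of the RefSeq start of NOTCH1 (GRCh38.p14, chr9:136546049-136546298, minus strand, written 5′ to 3′), with matches to CCCTC or its reverse complement GAGGG in capitals.
NOTCH1 promoter: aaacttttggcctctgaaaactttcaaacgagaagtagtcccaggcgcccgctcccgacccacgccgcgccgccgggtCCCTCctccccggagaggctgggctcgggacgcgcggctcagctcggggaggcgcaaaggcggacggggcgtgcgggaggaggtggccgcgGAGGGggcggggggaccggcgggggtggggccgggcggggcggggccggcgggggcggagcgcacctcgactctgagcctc
CCCTC is the word from which CTCF takes its name. The letters occurred 2 times over both strands, and 66.6% of 35116 promoter windows of the same length held at least 1 match. The window was 76.0% G or C. It held no GATC, the DpnII site at which the chromatin was first cut, and no CATG or GTAC, the sites of NlaIII and CviQI used for the second cut. Of all promoter windows, 35.8% held GATC, 47.6% CATG and 25.5% GTAC. A match describes letters in this window and not a bound site.

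The span between 5 and 500 kb from a viewpoint is called near-cis. Promoter libraries held 268826 and 265803 near-cis reads in the S4 mutant and 428041 and 616261 in the S4-S5 mutant. S2 libraries held 1700884 to 2691302 and S4 libraries 1765276 to 2595759. All shares below are percentages of the near-cis reads of a library, so a higher share in one region goes with a lower share elsewhere. Over near-cis fragment ends, log2 reads of the 2 libraries of a genotype correlated at r = 0.990 to 0.995, against 0.627 to 0.719 between the genotypes, which is a description across ends that share library and depth. Replicate counts nonetheless varied beyond counting error (chi-square per degree of freedom 1.29 to 30.9). Reads within 5 kb of the viewpoint took 94.6 to 94.7% of chromosome 9 reads in S4 mutant libraries and 88.1 to 88.6% in S4-S5 mutant libraries at the promoter. The S2 viewpoint had 65.0% in the former and 61.3 to 61.9% in the latter, and the S4 viewpoint 59.5 to 59.9% and 56.8 to 57.3%. Reads reached 47.3 to 48.5% of near-cis ends in the S4 mutant and 51.7 to 52.6% in the S4-S5 mutant at the promoter. From S2 the order was turned, at 46.1 to 48.0% and 42.4 to 44.8%, and so it was from S4, at 47.1 to 48.3% and 42.2 to 45.5%. The part of these values in the results below was not tested.

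At each viewpoint, libraries of the S4-S5 mutant gave a smaller share of their contacts to the centromeric side beyond S2, and a larger share to the 100 kb just telomeric of S4, than libraries of the S4 mutant. The S4 viewpoint had the largest centromeric difference, with 13.2% ± 0.0753 of near-cis reads more than 100 kb beyond S2 in the S4 mutant, and 6.82% ± 0.0317 with S5 mutated as well (SD, n = 2 each). That region ends 500 kb from the own viewpoint, so its length differed, with 23 tested bins from S4, 31 from the promoter and 36 from S2. The S4 viewpoint also gave more of its contacts to the stretch that runs from S2 to the promoter, 21.1% ± 0.168 against 14.5% ± 0.0620. The S2 viewpoint gave 21.3% ± 0.324 against 15.0% ± 0.0948 to the 100 kb telomeric of S4, and the promoter gave 11.3% ± 0.0108 against 8.07% ± 0.0476. In each of these cases both S4-S5 mutant libraries lay beyond both S4 mutant libraries. The genotypes were apart in every region at each viewpoint, so this does not single these regions out. With 2 libraries against 2, the smallest p-value that an exact two-sided permutation test allows is 0.333, so region shares are described by their spread and overlap, with no call.

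**Figure D1:**
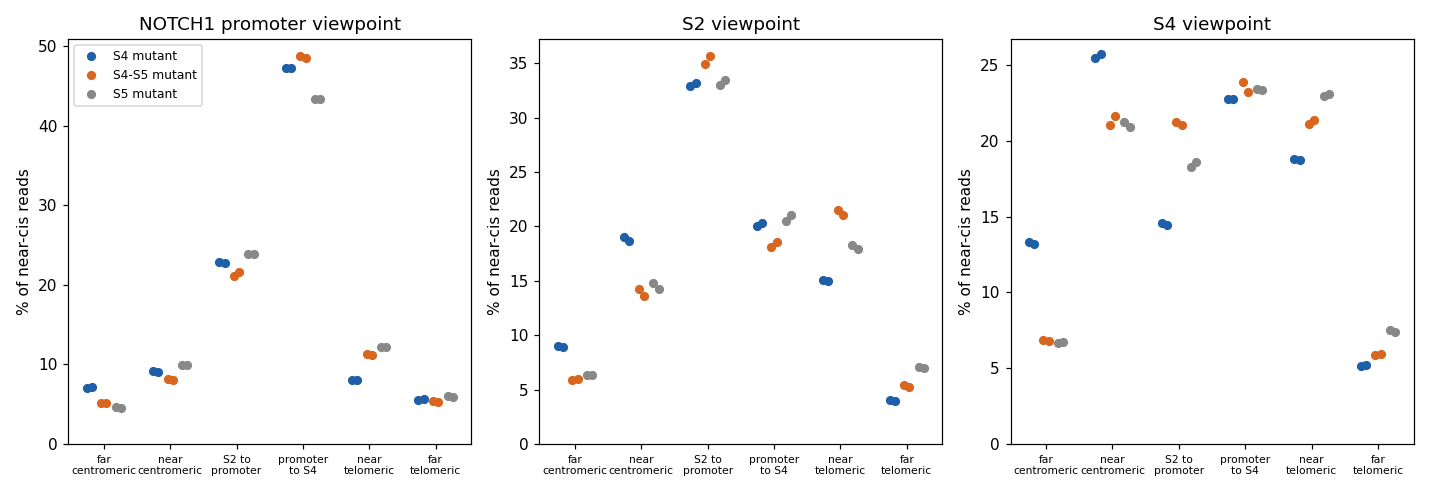
Share of near-cis reads (%) in 6 regions for each library, with 1 panel per viewpoint and each point 1 library of the S4, S4-S5 or S5 mutant. Far regions lie more than 100 kb beyond S2 or S4, out to 500 kb from the own viewpoint, and near regions within 100 kb of them. At the S4 viewpoint the far centromeric points of the S4 mutant, 13.2 and 13.3%, stand above those of the S4-S5 mutant, 6.79 and 6.84%.

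From the NOTCH1 promoter, the region with the largest difference lay telomeric of S4. The 100 kb beyond S4 held 8.04 and 8.11% of near-cis reads in the S4 mutant libraries and 11.3 and 11.3% in the S4-S5 mutant libraries, a log2 ratio of 0.48. The gain was split over the nearer and the farther 50 kb, with log2 ratios of 0.45 and 0.52. Both S4-S5 mutant values were above both S4 mutant values in each. Farther out on the same side, the shares were 5.59 and 5.62% against 5.40 and 5.27%, so the difference there was in the other direction and small (log2 ratio -0.072, and 0.032 in a window of 1 Mb).

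On the centromeric side of the promoter viewpoint, the region more than 100 kb beyond S2 held 6.99 and 7.12% in the S4 mutant and 5.19 and 5.22% in the S4-S5 mutant (log2 ratio -0.44). The 100 kb next to S2 held 9.16 and 9.08% against 8.24 and 8.10% (-0.16). Neither region had overlapping libraries. The lower share was uneven along the arm: by 50-kb segments outward from S2, the log2 ratio was -0.13, -0.23, -0.01, -0.62, -1.07, 0.05 and -0.65. The third segment overlapped between genotypes, and in the sixth the S4-S5 mutant libraries were the higher ones.

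Between S2 and the promoter, over most of the NOTCH1 gene, the promoter's share was 22.9 and 22.8% in the S4 mutant and 21.2 and 21.6% in the S4-S5 mutant (-0.096). From the promoter to S4 it was 47.3 and 47.3% against 48.7 and 48.6% (0.041). These 2 stretches next to the viewpoint thus shifted little in relative terms, although their libraries did not overlap.

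Of 96 bins of 10 kb with a mean of at least 10 reads, 85 differed at the promoter viewpoint in edgeR's quasi-likelihood F test at a Benjamini-Hochberg adjusted p under 0.05, or 88.5% of the bins, with 40 higher (41.7%) and 45 lower (46.9%) in the S4-S5 mutant. With nearly every bin called, a single call says little about a bin, and its size and place are what the values below describe. A change of at least 2-fold was seen in 19 bins, 19.8% of those tested. All 10 bins of the 100 kb telomeric of S4 were higher, with a median log2 fold change of 0.37 against -0.07 over all bins. Of 31 far centromeric bins, 20 fell and 7 rose (median -0.57).

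The promoter's contacts rose most in points in the bin from 139500001, on the promoter side of S4, where the S4 mutant libraries had 3.98 and 4.06% and the S4-S5 mutant libraries 6.10 and 6.05% (log2 fold change 0.59, SE 0.0190, edgeR adjusted p = 2.92e-75). The neighbouring bin from 139510001 went from 3.73 and 3.83% to 4.47 and 4.52% (0.25). The bin from 139380001, which holds S2, rose from 3.08 and 3.03% to 3.78 and 3.80% (0.31). These 3 bins were chosen from those past the threshold whose libraries did not overlap, so neither property is a separate result for them.

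Inside the NOTCH1 stretch, 3 of 5 bins fell and 2 rose from the promoter. At 139410001 the bin's share fell from 5.22 and 5.20% to 3.60 and 3.68% (log2 fold change -0.52, edgeR adjusted p = 8.33e-63), and at 139400001 from 4.56 and 4.47% to 3.70 and 3.96% (-0.24). The bins that rose were those nearest the promoter, from 139430001, with 5.96 and 6.06% against 6.75 and 6.69% (0.16), and from 139420001, with 3.07 and 2.98% against 3.15 and 3.21% (0.074). Outside the stretch, the bin from 139450001, just telomeric of the promoter and the strongest of those outside the mask, had 19.2 and 19.2% against 18.1 and 18.2% (-0.082, and 0.022 with non-blind ends only).

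The largest ratios at the promoter viewpoint lay in weak bins. In the bin from 139600001, 162 kb from the promoter, the S4 mutant libraries had 0.343 and 0.327% and the S4-S5 mutant libraries 0.987 and 0.972% (log2 fold change 1.55), with 20 of 29 covered ends higher in both. Over all near-cis ends from the promoter, 47.4% were higher. The bin from 139720001 had 0.0376 and 0.0316% against 0.168 and 0.170% (2.29), but 1 end held 85.4% of its S4 mutant reads. Of the bins with the largest ratios downward, the one from 138950001 had 0.301 and 0.327% against 0.0738 and 0.0696% (-2.14), while those from 138940001 and 139730001 held 127 and 73 reads in the S4 mutant and 30 and 18 in the S4-S5 mutant. The former turned to a log2 fold change of 3.68 when blind ends were left out.

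From S2, contacts across the gene to the far side of S4 were higher in the S4-S5 mutant. The 100 kb telomeric of S4 held 15.1 and 15.0% of near-cis reads in the S4 mutant and 21.5 and 21.0% in the S4-S5 mutant, a log2 ratio of 0.50. The rise was greater in the farther 50 kb, at 5.46 and 5.40% against 8.74 and 8.48% (0.67), than in the nearer 50 kb, at 9.64 and 9.57% against 12.8 and 12.6% (0.40). Beyond 100 kb the share was also higher, with 4.00 and 3.96% against 5.39 and 5.20% (0.41). None of these stretches had overlapping libraries, which was so for every region at each viewpoint.

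On its own centromeric side, the S2 viewpoint had 19.0 and 18.7% of near-cis reads within 100 kb in the S4 mutant and 14.3 and 13.6% in the S4-S5 mutant (log2 ratio -0.44). Farther out the values were 8.98 and 8.93% against 5.89 and 5.98% (-0.59). Each of the 7 segments of 50 kb outward from S2 was lower in both S4-S5 mutant libraries, with log2 ratios of -0.43, -0.46, -0.77, -0.41, -0.27, -1.02 and -0.51. Telomeric over centromeric reads of S2 had a log2 ratio of 1.36 and 1.39 in the S4 mutant and 1.99 and 2.04 in the S4-S5 mutant.

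Towards the promoter, the S2 viewpoint's share was 32.9 and 33.1% in the S4 mutant and 34.9 and 35.7% in the S4-S5 mutant (0.095). Past the promoter, up to S4, it was 20.0 and 20.3% against 18.1 and 18.6% (-0.14). The stretch between promoter and S4 was thus lower while the stretches on either side of it were higher.

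Of 95 bins tested from S2, 89 differed in edgeR's test (93.7%), with 45 higher (47.4%) and 44 lower (46.3%), and 31 by at least 2-fold (32.6%). Near S4 on the telomeric side 9 of 10 bins rose and none fell (median log2 fold change 0.35 against 0.06 over all bins). Within 100 kb centromeric, 8 of 9 bins fell and 1 rose (median -0.47), and of the 36 farther bins 23 fell and 12 rose (median -0.47).

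The bin from 139590001 showed one of the largest gains in points from S2, from 1.94 and 1.95% to 3.67 and 3.48% (log2 fold change 0.88, SE 0.0449, edgeR adjusted p = 1.38e-15). The bin from 139560001 rose from 1.11 and 1.12% to 2.06 and 2.13% (0.91). Next to S2 on the gene side, the strong bin from 139400001 went from 14.0 and 14.4% to 15.4 and 16.0% (0.15), a call that was lost without S4 replicate 1 (0.13, adjusted p = 0.106) or S4-S5 replicate 2 (0.12, adjusted p = 0.0577). All of them were chosen from bins past the threshold whose libraries did not overlap.

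Losses from S2 were largest in points on both sides. The bin from 139330001 fell from 1.73 and 1.69% to 0.501 and 0.487% (log2 fold change -1.79, edgeR adjusted p = 7.28e-21), with 18 of 25 covered ends lower and 2 higher. Over all near-cis ends from S2, 41.9% were lower and 37.4% higher. The bin from 139360001 fell from 4.43 and 4.40% to 3.26 and 3.11% (-0.47). Just telomeric of the promoter, the bin from 139450001 fell from 2.81 and 2.72% to 1.78 and 1.68% (-0.68).

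The most extreme ratios from S2 rested on a handful of fragment ends. The bin from 138990001 had 19 reads over both S4 mutant libraries and 7572 over both S4-S5 mutant libraries, on 8 covered ends. In the bin from 139860001 the values were 359 and 7696 reads, with 96.4% of the former at 1 end. The bin from 139730001 had 5 against 547 reads on 3 ends. On the lower side, the bin from 139110001 was better covered, with 12082 against 1740 reads and 11 of 14 ends lower (log2 fold change -2.81). Those from 138920001 and 139770001, with -2.57 and -2.58, had 4 of 10 and 4 of 9 ends lower. The latter counts lie near the share over all near-cis ends from S2, of which 41.9% were lower.

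From S4, whose own mutation both genotypes share, the S4-S5 mutant reached less far to the centromeric side and more often to the stretch between S2 and the promoter. More than 100 kb beyond S2, the libraries had 13.3 and 13.2% in the S4 mutant and 6.84 and 6.79% in the S4-S5 mutant, a log2 ratio of -0.96 (-1.55 within a window of 250 kb, which holds only the part nearest to S2). Within 100 kb centromeric of S2 they had 25.5 and 25.7% against 21.0 and 21.6% (-0.26). By 50-kb segments outward from S2 the log2 ratio was -0.17, -0.50, -0.99, -1.03, -1.05, -0.24 and -1.39, and no segment had overlapping libraries. No bin was kept between those starting at 139160001 and 139210001, so the segments from 150 to 250 kb rest on fewer fragments.

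Between S2 and the promoter, over most of NOTCH1, the S4 viewpoint's share was 14.6 and 14.5% in the S4 mutant and 21.3 and 21.0% in the S4-S5 mutant, a log2 ratio of 0.54. Between promoter and S4 the values were 22.8 and 22.7% against 23.8 and 23.2% (0.049, and -0.038 in a window of 250 kb). The higher share thus lay on the far side of the promoter as seen from S4.

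On its telomeric side, the S4 viewpoint had 18.8 and 18.7% within 100 kb in the S4 mutant and 21.1 and 21.4% in the S4-S5 mutant (0.18). Beyond that the shares were 5.17 and 5.21% against 5.90 and 5.95% (0.19, but -0.037 with non-blind ends only). The ratio within 100 kb depended on the handling of the viewpoint's surroundings and of blind ends: it was 0.43 with a mask of 20 kb, and 0.095 with non-blind ends only or within a window of 250 kb.

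Of 96 bins tested from S4, 88 differed in edgeR's test (91.7%), with 46 higher (47.9%) and 42 lower (43.8%), and 30 by at least 2-fold (31.2%). Of 23 far centromeric bins 21 fell and 2 rose, with a median log2 fold change of -0.90 against 0.04 over all bins, and 9 of the 23 fell by at least 2-fold. Among the 5 bins between S2 and the promoter 4 rose and 1 fell (median 0.54). Of the 10 bins telomeric of S4 8 rose and 1 fell (median 0.36).

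The gain between S2 and the promoter was greatest next to S2. In the bin from 139390001 the S4 viewpoint's share rose from 0.886 and 0.860% to 2.17 and 2.26% (log2 fold change 1.34, SE 0.0299, edgeR adjusted p = 1.94e-58), with 18 of 30 covered ends higher and 5 lower. The next bin, from 139400001, rose from 4.12 and 4.05% to 7.92 and 7.77% (0.94), with 23 of 38 ends higher and 9 lower. Over all near-cis ends from S4, 36.5% were higher and 44.1% lower. Both bins were chosen from those past the threshold whose libraries did not overlap.

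Telomeric of S4, the bin from 139560001 rose from 1.29 and 1.28% to 2.59 and 2.55% (log2 fold change 1.00). The bin from 139530001, 11.3 kb from the viewpoint, fell from 7.47 and 7.55% to 6.04 and 6.15% (-0.30), but gave 0.062 when single ends were capped at the 99th percentile. Centromeric of S2, the bin from 139280001 fell from 1.35 and 1.34% to 0.317 and 0.292% (-2.15, edgeR adjusted p = 4.12e-68), and the bin from 139350001 from 2.72 and 2.77% to 1.65 and 1.70% (-0.71). These bins, too, were chosen from those past the threshold whose libraries were apart.

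Among the most extreme ratios from S4 was that of the bin from 139020001, at the centromeric border of the window (log2 fold change -4.91). It had 6124 reads over both S4 mutant libraries and 206 over both S4-S5 mutant libraries. Of its 11 ends 8 were lower, against 44.1% of all near-cis ends from S4. The other bins lay 301 kb or more telomeric of S4 and were nearly empty in 1 genotype. The bin from 139820001 had 2073 against 18 reads, that from 139910001 38 against 880, that from 139870001 16 against 225 (log2 fold change 3.77, and -0.26 with non-blind ends only) and that from 140010001 101 against 2403. In the bin from 139940001, where the values were 100 reads and 1 read, the ratio of the S4-S5 mutant to the S4 mutant rests on that single read.

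**Figure D2:**
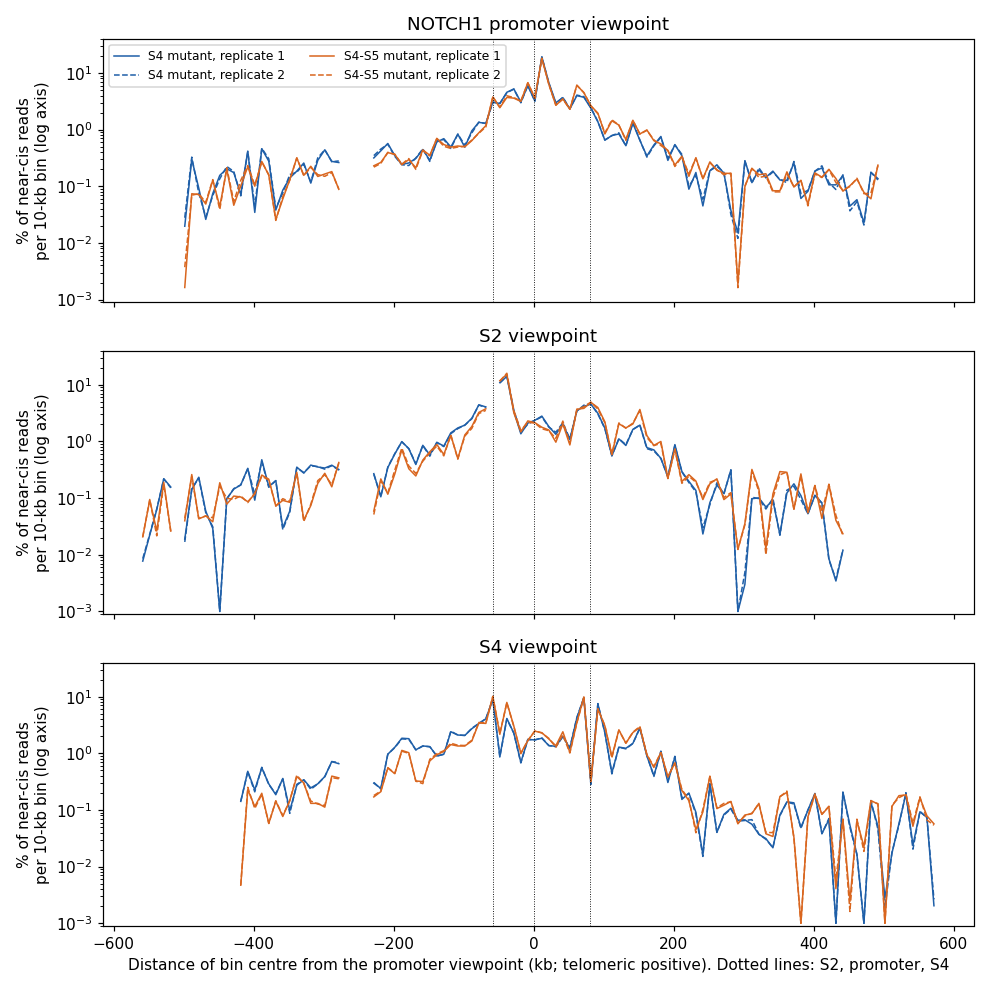
Share of near-cis reads (%, log axis) per 10-kb bin against distance from the promoter viewpoint (kb, telomeric positive), with 1 panel per viewpoint and 1 line per library of the S4 mutant (blue) or S4-S5 mutant (orange). Values under 0.001% are drawn at 0.001%, lines break where no bin was kept, and the replicates of a genotype nearly coincide; at the S4 viewpoint the orange lines run below the blue ones over most of the centromeric side.

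**Figure D3:**
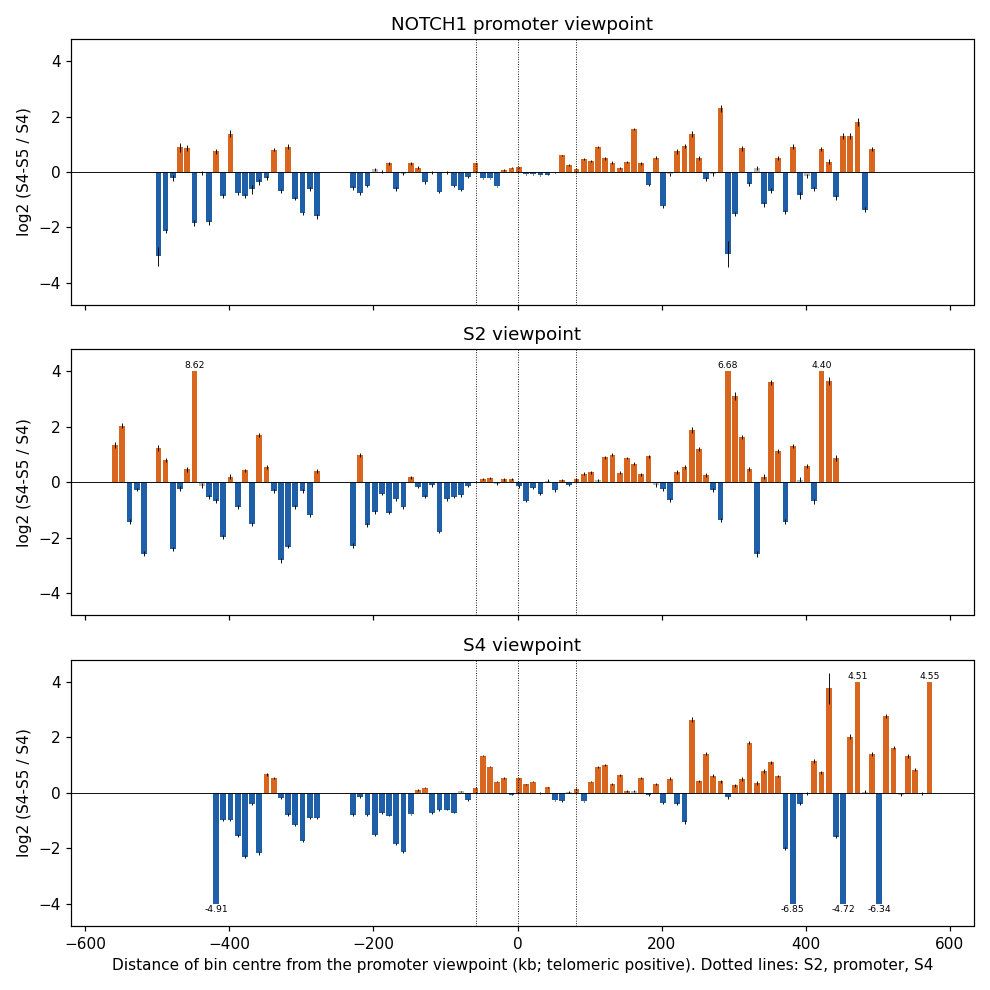
Log2 fold change of the S4-S5 mutant over the S4 mutant per 10-kb bin with its SE, against distance from the promoter viewpoint (kb, telomeric positive), with bins past the adjusted threshold of 0.05 in orange (higher) or blue (lower) and others in grey. Bars beyond 4 are cut there with their value printed; the bins just telomeric of S4 are nearly all orange at each viewpoint, and the far centromeric bins of the S4 viewpoint are blue except for 2.

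Contacts between the viewpoints themselves were read in windows of fixed width. Windows of 20 kb centred on another viewpoint held, from the promoter, 5.00 and 5.10% at S4 in the S4 mutant and 6.04 and 6.02% in the S4-S5 mutant (log2 ratio 0.26). At S2 the promoter had 5.49 and 5.46% against 5.66 and 5.71% (0.05), a ratio that was 0.30 with windows of 10 kb and -0.032 with windows of 40 kb. The ratio at S4 was 0.32 and 0.36 with those widths, so which of the contacts differed more depended on the window. The 10-kb bin that holds S4 had 2.40 and 2.44% against 2.65 and 2.60% from the promoter (log2 fold change 0.12), a smaller difference than that of the bin holding S2 given above.

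The contact between S2 and S4 was read from either end. From S2, the window at S4 held 9.78 and 10.0% in the S4 mutant and 10.9 and 11.0% in the S4-S5 mutant (0.15). From S4, the window at S2 held 10.4 and 10.6% against 12.7 and 12.9% (0.28). Both views had the S4-S5 mutant libraries above the S4 mutant libraries. In single bins, the one from 139520001, which holds S4, had 4.55 and 4.61% against 4.89 and 4.96% from S2 (log2 fold change 0.10, and 0.10 and 0.11 with adjusted p = 0.301 and 0.213 without S4 replicate 1 or 2), and the one from 139380001, which holds S2, had 8.87 and 9.05% against 10.1 and 10.2% from S4 (0.18).

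The promoter was seen in opposite directions from its 2 flanks. From S4, the 20-kb window on the promoter held 3.05 and 3.05% in the S4 mutant and 3.89 and 3.94% in the S4-S5 mutant (0.36). From S2 it held 4.17 and 4.10% against 3.58 and 3.45% (-0.23). The libraries of the genotypes did not overlap in either. The bin from 139440001, which holds the promoter, rose from 1.73 and 1.72% to 2.46 and 2.49% from S4 (log2 fold change 0.52) and fell from 2.36 and 2.35% to 2.15 and 2.11% from S2 (-0.15). The latter rested on 1 strong end: without the most covered end of each bin it was 0.087. It was also no longer past the threshold without S4 replicate 1 or 2 (edgeR adjusted p = 0.147 and 0.130).

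Of the other strong contacts, those of S2 with the promoter side of S4 differed little. From S2, the bins from 139500001 and 139510001 on the promoter side of S4 had 3.49 and 3.44% against 3.71 and 3.68%, and 4.17 and 4.37% against 3.84 and 4.11%. The genotypes overlapped in neither, but the log2 fold changes, 0.09 and -0.10, both changed sign without the most covered end of each bin. Neither call held without S4 replicate 1 (0.10 and -0.14, edgeR adjusted p = 0.282 and 0.147) or S4 replicate 2 (0.08 and -0.07, adjusted p = 0.366 and 0.458), nor did the second without S4-S5 replicate 1 (-0.05, adjusted p = 0.212). From S4, the bin from 139370001, next to S2, had 4.07 and 4.08% against 3.38 and 3.45% (-0.25).

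The 3 viewpoints shared 82 tested bins, of which 14 were higher in the S4-S5 mutant at each and 15 lower at each, and 53 were neither. Of the 14 higher ones, 7 were among the 10 bins telomeric of S4, 6 lay farther telomeric, and 1, from 139420001, lay in the NOTCH1 stretch. Of the 15 lower ones, 10 were among 23 far centromeric bins, 3 among 9 near centromeric bins and 2 farther telomeric. No bin on the centromeric side beyond S2 was higher at all 3 viewpoints, and none of the 10 bins telomeric of S4 was lower at all 3. The viewpoints are separate amplifications, but the labels do not say whether they used the same ligated templates.

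Among those shared bins, the one from 139560001 had log2 fold changes of 0.49 from the promoter, 0.91 from S2 and 1.00 from S4. The bin from 139680001, farther telomeric, had 1.38, 1.88 and 2.64. On the lower side, the bin from 139330001 had -0.73, -1.79 and -0.62, and the bin from 139140001 had -1.49, -0.32 and -1.74. These 4 bins were chosen from the shared ones after their values were seen.

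Counted by single fragment ends, the pattern was spread over many ends. An end was called higher or lower where its share of near-cis reads in both S4-S5 mutant libraries lay beyond that in both S4 mutant libraries. From the promoter, 1936 near-cis ends had a read in at least 1 library, and 47.4% were higher and 38.9% lower. Of the 276 ends telomeric of S4, 56.9% were higher and 34.4% lower. In the far centromeric region the shares were 42.8 and 41.1%, so lower ends did not outnumber higher ones there. The S4-S5 mutant libraries of the promoter held more near-cis reads, and ends read only in both of them count as higher. In that region 117 of 491 ends were of this kind, against 79 read only in both S4 mutant libraries. Over all 1936 ends the numbers were 296 and 192. The part of depth in these counts was not tested.

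From S2, 37.4% of 1777 ends were higher and 41.9% lower. Telomeric of S4, 50.4% of 280 ends were higher and 33.6% lower. Within 100 kb centromeric of S2 33.9% of 295 ends were higher and 52.9% lower, and farther out 28.2% of 476 were higher and 48.1% lower. The region just telomeric of S4 and the 2 centromeric regions thus differed from the whole window in opposite directions. Between S2 and the promoter 38.6% of ends were higher and 36.4% lower, and from the promoter to S4 37.7 and 40.8%.

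From S4, 36.5% of 1821 ends were higher and 44.1% lower. In the far centromeric region 22.2% of 397 ends were higher and 57.2% lower. Between S2 and the promoter 56.6% of 152 ends were higher and 30.3% lower, and telomeric of S4 46.9% of 258 were higher and 39.9% lower. Adjacent ends share fragments and all ends share a library, so these shares are descriptions.

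**Figure D4:**
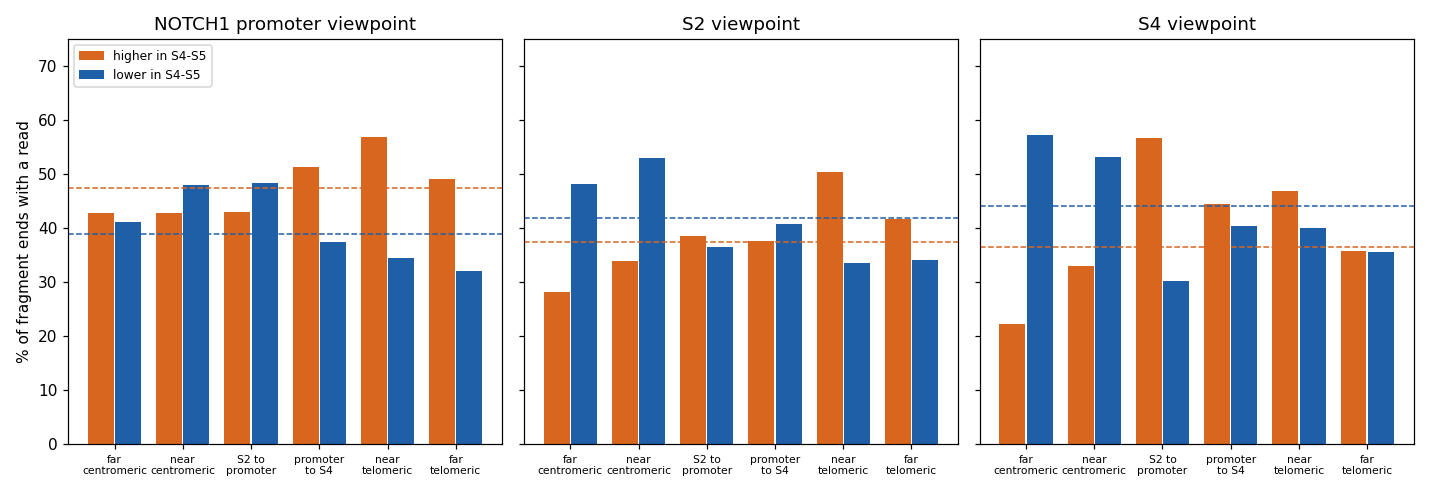
Share of covered fragment ends (%) whose part of the near-cis reads was higher (orange) or lower (blue) in both S4-S5 mutant libraries than in both S4 mutant libraries, by region, with 1 panel per viewpoint. Dashed lines give the same shares over all near-cis ends of the viewpoint; at the S4 viewpoint 57.2% of far centromeric ends were lower, against 44.1% over all ends.

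Counting covered ends in place of reads gave smaller ratios in both regions named at the outset, on a measure that cannot move where every end is already reached. On reads, edgeR called 85, 89 and 88 bins at the promoter, S2 and S4, and DESeq2 79, 79 and 84. When each end with at least 1 read was counted once, edgeR called 0 bins at each viewpoint. At an unadjusted p under 0.05 there were then 2, 2 and 0 bins. On that scale the log2 ratio of the far centromeric region was -0.00148 from the promoter, -0.14 from S2 and -0.13 from S4. That of the 100 kb telomeric of S4 was 0.021, 0.096 and 0.095. Bins in which each of the 4 libraries reached at least 90% of the ends found in any of them numbered 14 of 96 from the promoter, 10 of 95 from S2 and 9 of 96 from S4. They held 66.8, 27.3 and 31.1% of the near-cis reads of the S4 mutant. The absence of calls on covered ends therefore says nothing about those bins. In the remaining bins a count still cannot exceed the number of ends. The absence of calls there does not show that contacts were equal. Since 4C reads carry no molecular identifier, reads at 1 end can be copies of few ligation events.

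The S5 mutant, which lacks the S4 mutation by its label, is set beside the other groups as a description that shares the S4-S5 mutant libraries. Its far centromeric share was 4.61% ± 0.0388 from the promoter, 6.36% ± 0.00585 from S2 and 6.70% ± 0.0363 from S4 (SD, n = 2). The S4-S5 mutant had 5.20% ± 0.0186, 5.94% ± 0.0583 and 6.82% ± 0.0317 there, so from the promoter and S4 its libraries were above those of the S5 mutant and from S2 below them. Telomeric of S4 the S5 mutant had 12.2% ± 0.0124, 18.1% ± 0.248 and 23.0% ± 0.0904, against 11.3, 21.3 and 21.2% in the S4-S5 mutant. The S4-S5 mutant libraries were thus lower than those of the S5 mutant from the promoter and S4 and higher from S2. In each of these 6 values the mean of the S4-S5 mutant was nearer to that of the S5 mutant than to that of the S4 mutant, but both regions were chosen for their difference between the S4-S5 and the S4 mutant. Over all 18 region values, 11 were nearer to the S5 mutant and 7 to the S4 mutant. The latter were the other 4 regions from the promoter, the far telomeric region from S2 and S4, and the stretch between promoter and S4 from S2. Nearer does not mean between the 2 single mutants. In those 4 promoter regions the S4-S5 mean lay outside their range, as from promoter to S4 (47.3% in S4, 48.6% in S4-S5, 43.4% in S5). So it did in every region from S2 but the far telomeric one. From S4 it did so in both stretches between S2 and S4.

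Between S2 and the promoter, the S4 viewpoint's share was 18.4% ± 0.239 in the S5 mutant, below the 21.1% of the S4-S5 mutant and above the 14.5% of the S4 mutant. For the bin from 139400001 the S5 mutant had 5.25% ± 0.162, and the S4-S5 mutant was higher by a log2 fold change of 0.58 in the fit of all 8 mutant libraries (edgeR adjusted p = 8.16e-13). In the bin that holds S2 the mean of the S5 mutant was 10.2% ± 0.0417 and the log2 fold change -0.01 (adjusted p = 0.637). From the promoter the same bin had 5.38% ± 0.0306 in the S5 mutant, against 3.78 and 3.80% in the S4-S5 mutant (-0.51, adjusted p = 4.59e-14). In that bin, the S2 contact of the promoter was thus lower with S4 and S5 mutated than with S5 alone, and higher than with S4 alone.

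Over all of chromosome 9 outside the mask, the near-cis share differed by small amounts. From the promoter it was 82.9 and 83.1% in the S4 mutant and 82.6 and 82.9% in the S4-S5 mutant, which overlapped. From S2 it was 87.5 and 87.6% against 86.2 and 86.8%, and from S4 88.7 and 88.7% against 88.2 and 88.0%. By distance, the S4 viewpoint's share at 250 to 500 kb was 12.5 and 12.4% against 7.64 and 7.62% (log2 ratio -0.70). At 500 kb to 1 Mb it was higher in the S4-S5 mutant, with 4.29 and 4.33% against 4.62 and 4.71% (0.12), and at 1 to 5 Mb lower again, with 4.42 and 4.40% against 3.36 and 3.41% (-0.38). Reads beyond 5 Mb, where random ligation also lands, made up 2.62 and 2.61% against 3.78 and 3.88% from S4, 3.74 and 3.65% against 4.49 and 4.24% from S2, and 5.98 and 5.98% against 7.19 and 6.98% from the promoter. The S4-S5 mutant libraries were the higher ones at each viewpoint.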

How the data were processed

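The values used are read counts per restriction fragment end of chromosome 9, 1 file for each library, which the authors deposited as whole, unnormalized numbers per the file headers. Per the submitters' processing notes, deepTools and hg19 were used. Aligner, counter and read filters: not given in the sources used here. Per the labels' protocols, cells were fixed in 2% formaldehyde for 10 min, and 200 ng of template went through 16 cycles of the first PCR. Smoothed and scaled columns were not used.

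Reads within 5 kb of the own viewpoint were left out, reads within 500 kb were summed in 10-kb bins assigned to regions by their centre, and bins with a mean under 10 reads were dropped. Bins were tested per viewpoint on 4 libraries with edgeR 4.0.16 in R 4.3.3 (quasi-likelihood F test, two-sided, library size set to the near-cis reads, Benjamini-Hochberg over all bins, threshold 0.05). The procedure was tested on simulated data with a fixed spread between libraries and fewer changed bins than were called here. That run therefore does not show how it performs at the spread of these libraries. The fit of 8 mutant libraries served for the S5 mutant, and DESeq2 1.42.0 was an alternative. Ratios are of mean shares. Named bins were, for every viewpoint and direction, the 3 most changed by ratio and the 3 most changed in points among those past the threshold whose libraries did not overlap. The bins with the other viewpoints in them and the 3 strongest beyond 50 kb were also named. The 50-kb segments and the side ratio were added after the values were seen. Members, regions and rules were chosen with earlier results of these data known. No WT library entered, except in the alternative fit of 10 libraries. Between 265803 and 2691302 near-cis reads per library stood behind the values. Replicate numbers are shared by the labels, but nothing there says that they pair samples.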

Additional observations from a re-analysis of the deposited data

Results flagged for a closer look

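In 9 measures (regions, segments, distance bands and windows, leaving out single bins) both S4-S5 mutant libraries lay above both S4 mutant libraries from one viewpoint and below both from another. These differences between viewpoints were not tested. The stretch between S2 and the promoter had log2 ratios of the S4-S5 to the S4 mutant of -0.096 from the promoter, 0.095 from S2 and 0.54 from S4. The stretch between the promoter and S4 had 0.041, -0.14 and 0.049 in the same order. The region more than 100 kb telomeric of S4 had -0.072, 0.41 and 0.19. That region ends 500 kb from the own viewpoint, so it was not the same stretch each time and held 32, 27 and 40 tested bins. The distance bands, given last, also cover different stretches at each viewpoint. The 20-kb window on the promoter had -0.23 from S2 and 0.36 from S4. The sixth of the 50-kb segments outward from S2 on the centromeric side had 0.053 from the promoter, -1.02 from S2 and -0.24 from S4. By distance from the viewpoint, in the same order, the band within 50 kb had -0.086, -0.044 and 0.019, that at 50 to 100 kb 0.20, -0.35 and 0.28, that at 500 kb to 1 Mb -0.21, 0.020 and 0.12, and that at 1 to 5 Mb -0.031, 0.11 and -0.38.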

How the results depend on the processing

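Leaving out any 1 library kept the direction of every named bin and of the regions far centromeric and just telomeric of S4. It gave 82 to 83 changed bins at the promoter, 71 to 89 at S2 and 83 to 90 at S4, with the lone library of a genotype assumed to vary like the others. With the replicate number as a block, 84, 87 and 88 bins changed. Deviations of same-numbered libraries correlated at r = 0.40, 0.06 and -0.27 over the bins of the promoter, S2 and S4. Over bins with at least 500 reads in each genotype, r was 0.20, 0.20 and 0.02. With 2 libraries per genotype, these values cannot show whether same-numbered samples were paired. With crossed pairing, added after that check, 89 bins changed at S4. Amplified reads without identifiers, few covered ends in weak bins and 2 libraries per genotype limit the precision.

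Counts of changed bins at the promoter, S2 and S4 rose and fell with the bins tested. They were 41 of 49, 40 of 46 and 46 of 51 in a window of 250 kb. In one of 1 Mb they were 172 of 193, 179 of 190 and 176 of 186. Bins of 5 kb gave 167 of 186, 160 of 185 and 167 of 186, and bins of 20 kb 45 of 49, 47 of 50 and 47 of 49. With covered ends counted in place of reads, edgeR called 0 at each viewpoint (2, 2 and 0 at an unadjusted p under 0.05). For the other settings the cause was not tested. The median log2 fold change of all bins moved by -0.21 at S2 and -0.22 at S4 without the most covered end of each bin, by -0.21 at S4 with non-blind ends only, by -0.18 at S2 in a window of 250 kb and by 0.12 at S4 in one of 1 Mb.

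The far centromeric log2 ratio, in the order promoter, S2 and S4, was -0.46, -0.85 and -0.90 with non-blind ends, -0.47, -0.64 and -0.93 without the most covered end of each bin, -0.26, -0.62 and -1.55 in a window of 250 kb, -0.47, -0.46 and -0.71 in one of 1 Mb, and -0.00148, -0.14 and -0.13 with covered ends. At S2 it was also -0.61 scaled to chromosome 9, and at S2 and S4 -0.57 and -1.02 with capped ends and -0.58 and -0.97 with a mask of 20 kb. The ratio just telomeric of S4 was 0.40, 0.57 and 0.095 with non-blind ends and 0.021, 0.096 and 0.095 with covered ends. At the promoter and S4 it was 0.44 and 0.25 without the most covered end, 0.46 and 0.095 in a window of 250 kb, and 0.49 and 0.29 with capped ends. It was 0.49 at the promoter in a window of 1 Mb and 0.43 at S4 with a mask of 20 kb.

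A count of covered ends cannot move in bins whose ends are all reached, but some bins listed below were not so covered. At the promoter, a library had reads at 6 to 8 of the 12 ends of the bin from 139910001. At S2, it had reads at 12 to 17 of the 20 ends of the bin from 139440001. The cause of the reversals was not tested. Reversals came mostly with covered ends. There, bins from the promoter had -0.057 (139380001), -0.059 (139500001), -0.12 (139510001) and -0.32 (139910001), bins from S2 0.0015 (139360001), 0.43 (139440001), 0.085 (139510001) and 0.010 (139770001), and bins from S4 0.065 (139280001), 0.16 (139350001), 0.014 (139370001), -0.042 (139440001) and 0.089 (139530001). From the promoter to S4 the ratio was -0.087 at the promoter and 0.095 at S2, the far telomeric one was 0.10 at the promoter and -0.053 at S4, and the near centromeric one was 0.041 at S4. The S2 window was -0.11 from the promoter and the promoter window 0.21 from S2. The segment at 50 to 100 kb was 0.0012 at the promoter, that at 0 to 50 kb 0.075 at S2, and those at 0 to 50, 50 to 100 and 100 to 150 kb 0.074, 0.0019 and 0.15 at S4. The near-cis share was 0.054 at S2 and 0.070 at S4. Distance bands at the promoter were -0.16 (50 to 100 kb), -0.077 (100 to 250 kb) and 0.15 (1 to 5 Mb), at S2 0.11 (within 50 kb), 0.049 (50 to 100 kb), -0.037 (500 kb to 1 Mb), -0.10 (1 to 5 Mb) and -0.027 (beyond 5 Mb), and at S4 -0.042 (500 kb to 1 Mb).

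With non-blind ends only, the bins from 138940001 and 139450001 at the promoter had 3.68 and 0.022, that from 139500001 at S2 -0.16 and that from 139870001 at S4 -0.26. The far telomeric ratio at S4 was then -0.037, and the bands were 0.0024 (within 50 kb) and -0.086 (500 kb to 1 Mb) at S2 and -0.025 (within 50 kb) at S4. Without the most covered end, bins from S2 had 0.087 (139440001), -0.15 (139500001) and 0.046 (139510001), and the far telomeric ratio at S4 was -0.099. Capped ends gave 0.0046 for the bin from 139510001 at S2 and 0.062 for that from 139530001 at S4. The promoter to S4 ratio at S4 was -0.038 in a window of 250 kb, the far telomeric one at the promoter 0.032 in a window of 1 Mb, and the S2 window from the promoter -0.032 at 40 kb.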

Other observations

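Some ends had reads in both libraries of one genotype and none in the other. From the promoter, 296 of 1936 covered ends had reads in both S4-S5 mutant libraries alone and 192 in both S4 mutant libraries alone. Of 1777 ends from S2 the numbers were 79 and 136, and of 1821 from S4 72 and 141. The order followed the share of covered ends, which was higher in the S4-S5 mutant at the promoter and lower at S2 and S4. In the far centromeric region these ends numbered 117 and 79 of 491 from the promoter, 27 and 58 of 476 from S2, and 14 and 48 of 397 from S4. From the promoter, both kinds thus made up a larger part of this region than of all near-cis ends.

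The log2 ratio of reads telomeric to those centromeric of the viewpoint was higher in the S4-S5 mutant at each viewpoint. It was 0.641 and 0.645 in the S4 mutant against 0.918 and 0.899 from the promoter, and -1.67 and -1.67 against -1.43 and -1.41 from S4.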
